A study of Mus musculus with 7 samples.

Results

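The cytosolic ribosomal protein genes of the mouse heart were examined in RNA sequencing of mNrf2-TG and NTG mice. Members were the listed genes whose symbol begins with Rpl or Rps followed by a digit, together with Rplp0, Rplp1, Rplp2 and Rpsa, and without the Rps6k kinases, which are enzymes. Gm15501 carries a symbol of this kind in the deposited table and is given here by its name in the annotation. This symbol rule found 90 genes of 14641, with 1 entry kept per Entrez gene. By role they were 31 core proteins of the 40S subunit, 42 core proteins of the 60S subunit, 3 P-stalk proteins, 6 paralog genes, 7 retrogenes or pseudogenes, and Rps19bp1, which is matched by its symbol but is no ribosomal subunit. The 4 control mice were non-transgenic (NTG) littermates, and the 3 mNrf2-TG mice carried mouse Nrf2 in its full length, driven in cardiomyocytes by the αMHC promoter. All mice were untreated C57BL/6J males, and RNA came from lysates of the whole heart, so that all cell types of the organ contributed. The mNrf2-TG labels gave an age of 6 months, the design text of the series gave 7 to 8 months and the study's methods 6 to 7 months. There was 1 library per mouse, with the labels' numbers 1 to 4 in the NTG group and 17 to 19 in the mNrf2-TG group. The comparison asked how cardiac expression of full-length Nrf2, a transcription factor of the antioxidant response, changed the myocardial transcriptome.

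The cytosolic ribosome reads messenger RNA in its small 40S subunit and joins amino acids in its large 60S subunit. Each subunit is built in the nucleolus on ribosomal RNA, from proteins that are mostly present in a single copy per particle, and the messenger RNAs of these proteins are usually abundant and regulated as a group through mTORC1. A few ribosomal proteins have a second gene that is used in particular tissues, and striated muscle uses Rpl3l in place of much of its Rpl3. Many members also have processed copies elsewhere in the genome, which can share short reads with the parent gene.

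The library totals over the listed genes were 6534684 to 8405857 counts. Nfe2l2, the gene of Nrf2, had 729 to 1392 counts in the controls and 10912 to 12839 in the transgenic hearts, where reads of the transgene are included. Cardiomyocyte transcripts such as Myh6 and Tnnt2 were abundant in all libraries, as the labelled tissue requires. NTG 3 stood apart from the other NTG libraries in single genes, for example with 7947 normalized counts of the smooth muscle gene Acta2 against 1026 to 1886. Normalized counts are reads scaled by edgeR's TMM factors to the mean library size. Log2FC is the log2 fold change of mNrf2-TG over NTG, with its standard error (SE), and a gene was called when the p-value of edgeR's quasi-likelihood test, adjusted by Benjamini-Hochberg over the 14637 genes tested, was under 0.05. No source says whether reads were counted by strand.

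The ribosomal protein genes did not move as 1 block. A few genes changed strongly and most stayed within a narrow range, with a rise of Rpl22l1, Rpl3 and Rps21 and a fall of Rpl3l and Rps24 among the changes that held under all alternatives. All 90 members were tested, and 23 were called, 17 higher and 6 lower in mNrf2-TG. This was 25.6% of the members (18.9% higher and 6.67% lower), beside 17.2% of all genes tested (8.48% higher and 8.73% lower), and beside 24.0% of the genes with a mean count of at least 100 (10.3% higher and 13.7% lower). The total share called was near that of the genes above this floor, while the higher calls took a larger part of it and the lower calls a smaller part among the members, a difference that was not tested. The normalized counts of the groups did not overlap in 39 of the 90 members, 28 higher and 11 lower. They did not overlap in 29.7% of all genes (2201 higher and 2150 lower of 14637). Among the 7979 genes with a mean count of at least 100 the share was 37.8% (1298 higher and 1720 lower). The median Log2FC was 0.07 over the members and 0.00 over all genes tested. By role, 4 of the 31 core 40S proteins rose and 2 fell, 9 of the 42 core 60S proteins rose and 3 fell, and 56 of the 76 core and P-stalk members lay within 1.2-fold of NTG. A change above 1.5-fold was called in 6 members (6.67%), Rpl22l1, Rpl3, Rpl32l, Rps21, Rpl3l and Rpl21, beside 7.71% of all genes tested. Only 10 of the 23 calls held under all 16 alternatives. Without mNrf2-TG 17 or without mNrf2-TG 19 there were 9 higher members and without NTG 1 there were 11, while the lower members numbered 2 without NTG 4, mNrf2-TG 17 or mNrf2-TG 18 and 3 without NTG 2. Without NTG 3, the control that stood apart, 15 members were higher and 7 lower.

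**Figure D1:**
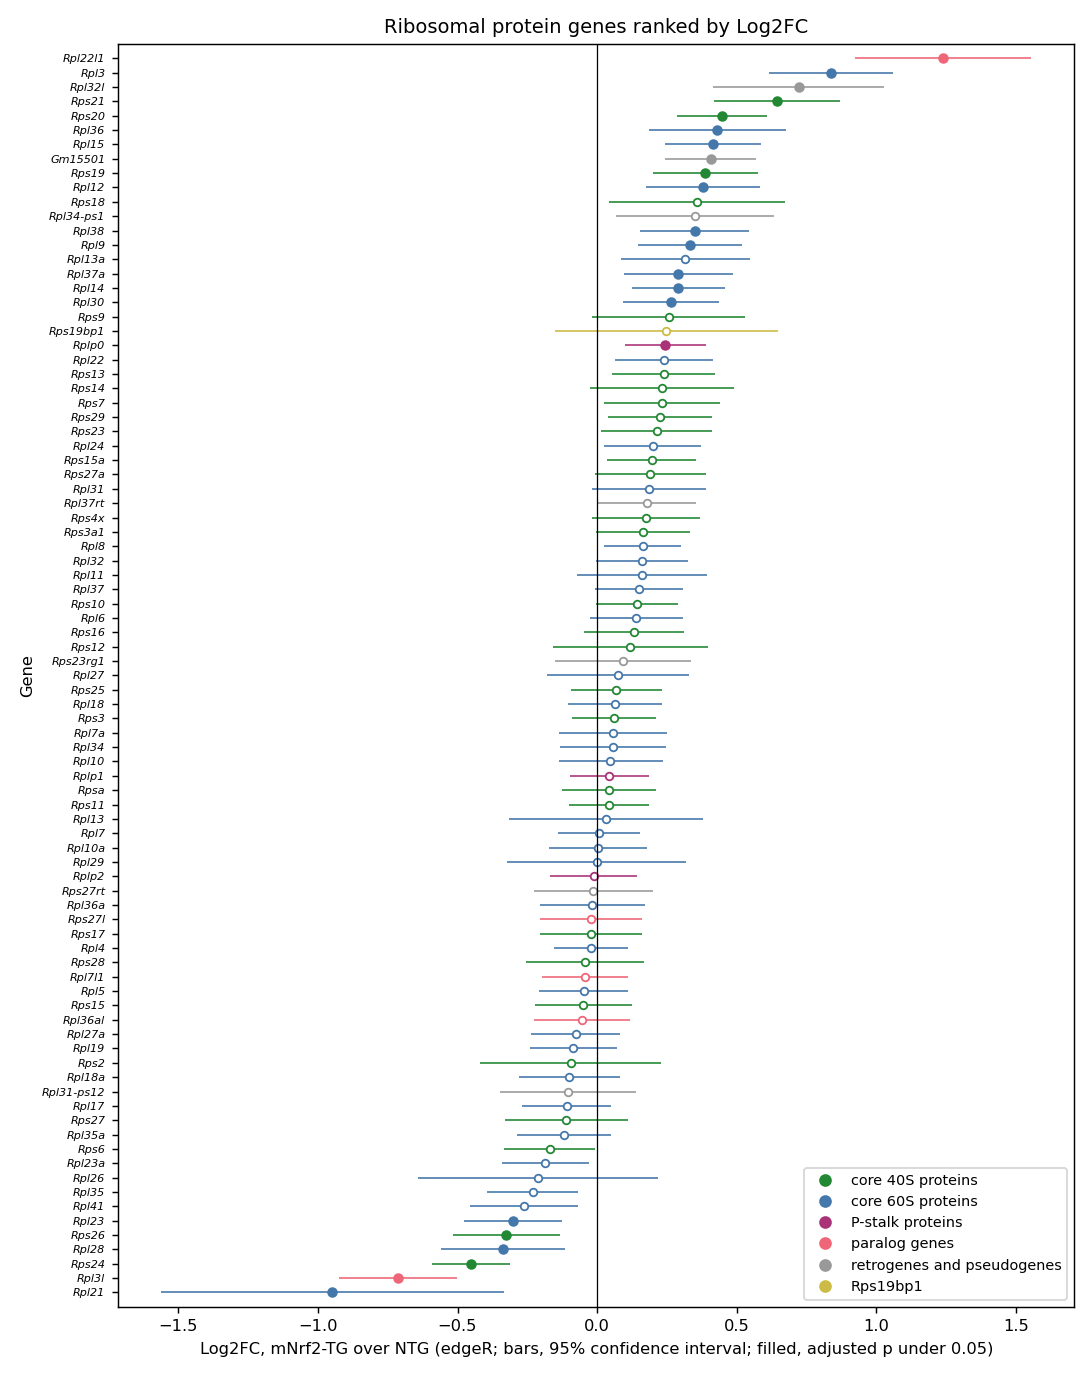
Log2FC (horizontal axis, log2 units) of 87 ribosomal protein genes with a mean count of at least 10, ordered by value and coloured by role, with 95% confidence intervals as bars. Filled points mark the 22 of these genes with an adjusted p under 0.05, and most of the core proteins lie close to 0 while Rpl22l1 and Rpl3 stand at the upper end and Rpl21 and Rpl3l at the lower end.

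The share of all counts that fell on the members was 0.888% ± 0.0378 (SD, n = 4) in NTG and 0.935% ± 0.0583 (SD, n = 3) in mNrf2-TG. The ranges were 0.839% to 0.925% and 0.886% to 0.9997% and overlapped. The difference of 0.047 percentage points was smaller than the spread within the mNrf2-TG group, and mNrf2-TG 19 alone lay above all NTG libraries. For the core and P-stalk members the ranges were 0.768% to 0.8499% and 0.8258% to 0.931%, with a difference of 0.0542 percentage points. These ranges also overlapped, but both mNrf2-TG 17 (0.8575%) and mNrf2-TG 19 lay above all NTG libraries. The 10 most abundant genes held 13.5% to 13.9% of the counts in the controls and 11.9% to 12.3% in the transgenic hearts, and without them the difference in the members' share was 0.0345 percentage points.

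Rpl3l and Rpl3 moved in opposite directions. Rpl3l (Entrez gene 66211, chromosome 17, 24727820 to 24736143 in GRCm38) encodes the striated-muscle form of the 60S protein L3, and Rpl3 (Entrez gene 27367, chromosome 15, 80077791 to 80091868) encodes the general form, which reaches towards the peptidyl transferase centre. The reads can tell the genes apart, because no run of 50 bases, the read length, was identical between their transcripts. Their coding sequences were identical at 74.4% of 1209 aligned bases. The first 60 coding bases are shown because the call rests on separating this pair, with the 13 differing bases in capitals (5′ to 3′, GENCODE M21, GRCm38).
Rpl3l: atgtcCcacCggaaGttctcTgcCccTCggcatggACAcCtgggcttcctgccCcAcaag
Rpl3: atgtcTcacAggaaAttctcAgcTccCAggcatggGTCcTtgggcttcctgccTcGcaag

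Rpl3l had 2246, 2272, 2724 and 2458 normalized counts in NTG 1 to 4 and 1467, 1340 and 1632 in mNrf2-TG 17 to 19. The groups did not overlap, and NTG 3 was the highest library. Its Log2FC was -0.71 (SE 0.0942, adjusted p = 0.00133), and this stayed between -0.78 and -0.65 with each library left out. Rpl3 had 300.0, 321, 295 and 378 normalized counts in the controls and 551, 562 and 625 in mNrf2-TG. All 3 transgenic hearts were above all controls, and the Log2FC was 0.84 (SE 0.0997, adjusted p = 0.000717), between 0.78 and 0.93 with each library left out. Both calls held under all 16 alternatives, with adjusted p-values of at most 0.0104 for Rpl3l and 0.00435 for Rpl3. Per length of transcript, the muscle form exceeded the general form by 6.38 to 9.06 times in the NTG hearts and by 2.34 to 2.61 times in the mNrf2-TG hearts. The log2 ratio of Rpl3l to Rpl3 counts was 2.91 ± 0.216 (SD, n = 4) in NTG and 1.35 ± 0.0841 (SD, n = 3) in mNrf2-TG, a difference of -1.557. The exact permutation test over libraries gave a two-sided p of 0.0286, the smallest that 4 against 3 allows, and adjusted over the 5 pairs tested the p was 0.0714, which does not pass. With the smaller tail doubled, the form of the exact test that was computed first, the p was 0.0571, and the form based on the absolute difference was taken up after that value was seen. Of the 50-base words of Rpl3, 85.6% also occur in other genes, mostly in the pseudogene Rpl3-ps1, whereas 0.0% of those of Rpl3l do. This makes the level of Rpl3 and the size of its ratio to Rpl3l uncertain, and the effect was not tested.

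Markers of other cell types moved with the same groups. For scale, 8.48% of all genes tested were called higher and 8.73% lower. Among genes with a mean count of at least 100 these shares were 10.3% and 13.7%. Fibroblast markers rose in 5 of 8 genes, such as Col1a2 and Lum, and their summed normalized counts were 8819 to 11490 in NTG and 12810 to 13600 in mNrf2-TG. Macrophage markers rose in 7 of 10 genes, such as Csf1r and Lyz2, with sums of 2384 to 3000 and 3832 to 5088. Cardiomyocyte markers fell in 5 of 11 genes, such as Tnni3 and Myl2, with a median Log2FC of -0.24 over the list and sums of 904300 to 938000 and 776300 to 797400. None of these markers was at 0 in any library. Lymphocyte markers stayed near 0, with sums of 9.0 to 15.9 and 7.26 to 21.5. Of the endothelial markers, 1 of 8 rose and 2 fell, with sums of 6956 to 7563 in NTG and 6589 to 6820 in mNrf2-TG. Of 7 smooth muscle and pericyte markers, 1 was called, and it fell, while the highest Log2FC in that list was 1.37. Their sums overlapped, with 4003 to 11230 in NTG and 7939 to 11660 in mNrf2-TG. Of 3 atrial markers tested, 1 was called, Nppa, which rose. Log2FC values in that list ran from -1.62 to 1.47, and 1 of these genes had a mean count under 10. Their summed counts were 685 to 1447 in the controls and 2026 to 3888 in the transgenic hearts. The paper counts Nppa among the fetal genes that are activated in cardiac hypertrophy. The part of these cell types in the changes of Rpl3l, Rpl3 and the other members was not tested. In whole-heart RNA, fewer cells of a type and less RNA per cell cannot be told apart.

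**Figure D2:**
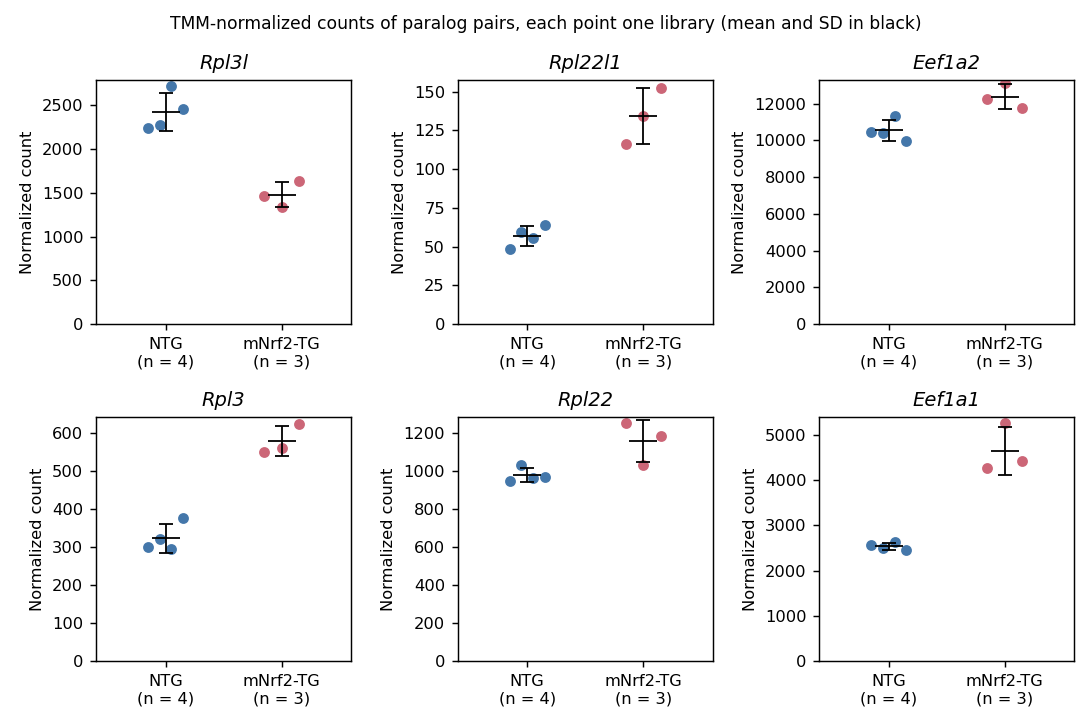
TMM-normalized counts (vertical axes, each starting at 0) of Rpl3l, Rpl3, Rpl22l1, Rpl22, Eef1a2 and Eef1a1, with 1 point per library in 4 NTG and 3 mNrf2-TG hearts and the mean and SD in black. The groups separate in every panel, Rpl3l is lower in mNrf2-TG, and Rpl3, Rpl22l1 and Eef1a1 are higher by more than the spread of either group.

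Rpl22l1 rose more than any other member. Rpl22 (core 60S protein, chromosome 4, 152325742 to 152334071) binds RNA at the surface of the 60S subunit, and Rpl22l1 (Entrez gene 68028, chromosome 3, 28805436 to 28807424) encodes its paralog. The coding sequences were identical at 70.2% of 369 aligned bases and shared no run of 50 bases. The stretch from coding base 22 of Rpl22l1 and from coding base 37 of Rpl22 is shown to set the pair side by side, with the 22 differing bases in capitals (5′ to 3′, GENCODE M21, GRCm38).
Rpl22l1: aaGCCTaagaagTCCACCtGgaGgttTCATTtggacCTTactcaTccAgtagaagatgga
Rpl22: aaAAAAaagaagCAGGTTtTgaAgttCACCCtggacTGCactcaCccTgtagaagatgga

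Rpl22l1 had 48.3, 59.4, 55.7 and 63.7 normalized counts in the controls and 116, 134 and 152 in mNrf2-TG. The lowest transgenic heart was well above the highest control, and the Log2FC was 1.24 (SE 0.142, adjusted p = 0.000623), between 1.14 and 1.33 with each library left out. These levels come from 42 to 66 counts per control library and 108 to 168 per transgenic library. Rpl22 had 949, 1030, 965 and 972 normalized counts in the controls and 1251, 1035 and 1185 in mNrf2-TG, and its Log2FC of 0.24 (SE 0.079, adjusted p = 0.0634) did not pass the threshold. Without mNrf2-TG 18, its lowest transgenic library, the adjusted p of Rpl22 was 0.0333. Per length of transcript, Rpl22l1 stood at 0.0442 to 0.0567 of Rpl22 in NTG and at 0.0801 to 0.112 in mNrf2-TG. The log2 ratio of the counts was -4.10 ± 0.147 (SD, n = 4) and -3.11 ± 0.273 (SD, n = 3), a difference of 0.996 (exact permutation test, two-sided, p = 0.0286, adjusted over the 5 pairs 0.0714, and 0.0571 with the smaller tail doubled). Other genes hold 65.6% of the 50-base words of Rpl22l1, mostly the pseudogene Gm15421, and 159 exon bases overlap the antisense gene Gm33051.

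The remaining paralog pairs showed no comparable difference. Rpl7l1, a relative of the 60S protein gene Rpl7, had 425 ± 9.97 normalized counts in the controls (SD, n = 4) and 412 ± 13.9 in mNrf2-TG (SD, n = 3), with a Log2FC of -0.04. Its log2 ratio to Rpl7 differed by -0.0496 between the groups (exact permutation p = 0.286, adjusted 0.357). Rpl36al, a second gene of the 60S protein L36a, had a Log2FC of -0.05 beside -0.02 for Rpl36a, and their log2 ratio differed by -0.0361 (exact permutation p = 0.543, adjusted 0.543). Rps27l, the paralog of the 40S protein gene Rps27, had a Log2FC of -0.02 beside -0.11 for Rps27, and their log2 ratio differed by 0.0922 (exact permutation p = 0.257, adjusted 0.357). The 95% confidence intervals of the Log2FC were -0.20 to 0.11 for Rpl7l1, -0.23 to 0.12 for Rpl36al and -0.20 to 0.16 for Rps27l. These intervals leave out changes of the size seen for Rpl3l and Rpl22l1. Rpl39l, known from the testis, had 0 to 4 counts per library, too few for a comparison.

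**Figure D3:**
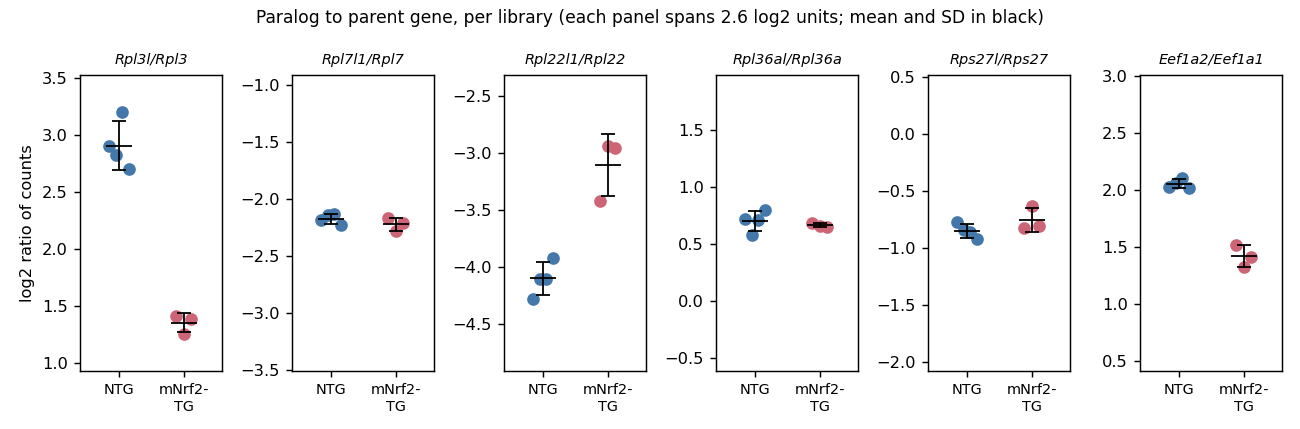
Log2 ratio of paralog to parent counts per library (vertical axes, each spanning 2.6 log2 units) for 5 ribosomal protein pairs and for Eef1a2 over Eef1a1, with the mean and SD of each group in black. The NTG and mNrf2-TG points are apart for Rpl3l/Rpl3, Rpl22l1/Rpl22 and Eef1a2/Eef1a1 and lie within 0.0922 of each other on average in the other 3 pairs.

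Among the core 60S proteins, Rpl15 rose and Rpl21 had the most negative value. Rpl15 (chromosome 14, 18267823 to 18271391), a gene mutated in some patients with Diamond-Blackfan anemia, had 521, 492, 518 and 577 normalized counts in the controls and 725, 664 and 718 in mNrf2-TG. All transgenic libraries were above the controls, and the Log2FC was 0.41 (SE 0.0774, adjusted p = 0.00701) and kept its call under all 16 alternatives, up to an adjusted p of 0.0335. Rpl36 (chromosome 17, 56613416 to 56614243) had 305, 310, 268 and 270 normalized counts in the controls and 415, 325 and 426 in mNrf2-TG. The groups were separate by a small margin at mNrf2-TG 18, and the Log2FC was 0.43 (SE 0.11, adjusted p = 0.0248). Its adjusted p was 0.0575 without NTG 4, 0.0955 without mNrf2-TG 17 and 0.0963 without mNrf2-TG 19. Other genes hold 75.2% of the 50-base words of Rpl15 and 81.1% of those of Rpl36, so the counts of both are uncertain.

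Rpl21 (chromosome 5, 146832890 to 146837032) had 334, 356, 208 and 380 normalized counts in the controls and 207, 91.6 and 200 in mNrf2-TG. NTG 3 nearly met the transgenic libraries, and mNrf2-TG 18 was far below the other transgenic hearts. The Log2FC was -0.95 (SE 0.275, adjusted p = 0.0408), with the widest SE among the called members. The adjusted p was 0.0909 without NTG 1, 0.101 without NTG 2, 0.0898 without NTG 4, 0.0605 without mNrf2-TG 17, 0.0877 without mNrf2-TG 18 and 0.0635 without mNrf2-TG 19. Without NTG 3 it was 0.00766, and without mNrf2-TG 18 the Log2FC was -0.66. Parts of the Rpl21 transcript occur in 82 other genes, which hold 55.5% of its 50-base words.

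A further 6 core 60S genes were called higher with a Log2FC between 0.27 and 0.38, and Rpl23 and Rpl28 were called lower. Rpl12, which lies at the base of the P-stalk, had a Log2FC of 0.38 (SE 0.0913, adjusted p = 0.0198), with adjusted p-values of 0.0558, 0.054, 0.0606 and 0.0687 without NTG 1, NTG 2, mNrf2-TG 17 and mNrf2-TG 19. Rpl38, known for its role in the patterning of the mouse skeleton, had a Log2FC of 0.35 (SE 0.0876, adjusted p = 0.0232), with 0.0692, 0.0599 and 0.0717 without mNrf2-TG 17, 18 and 19. For Rpl9 the Log2FC was 0.33 and the adjusted p 0.024, rising to 0.0644, 0.0523, 0.0948 and 0.0637 without NTG 1, NTG 2, mNrf2-TG 17 and mNrf2-TG 19. For Rpl14 they were 0.29 and 0.0254, with 0.0559, 0.0789 and 0.0792 without NTG 1, mNrf2-TG 18 and mNrf2-TG 19. Rpl30 and Rpl37a were closest to the threshold, with adjusted p-values of 0.0407 and 0.0463. Rpl30 was not called with any 1 library left out (0.0584 to 0.12), and Rpl37a was called only without mNrf2-TG 18 among these fits, with 0.0544 to 0.156 in the others. Rpl23, a protein that can bind Mdm2, had 1960 ± 172 normalized counts in the controls (SD, n = 4) and 1590 ± 13.4 in mNrf2-TG (SD, n = 3). Its Log2FC was -0.30 (adjusted p = 0.0276), with 0.0817, 0.0653, 0.0781, 0.0808 and 0.0792 without NTG 2, NTG 4 and mNrf2-TG 17, 18 and 19. Rpl28 had a Log2FC of -0.34 (adjusted p = 0.0442) and was called only without NTG 1 among the fits that left out 1 library, with 0.0569 to 0.139 in the others. Calls were also lost under other tools and scalings. Those of Rpl14, Rpl30 and Rpl37a were lost with libraries scaled to the summed members, and that of Rpl30 also under DESeq2. Those of Rpl23 and Rpl28 were lost when the library total alone was used. Over all annotated exons, Rpl28 shares 183 bases with Ube2s on the opposite strand, and Rpl15 shares 105 with Nkiras1. Rpl30 shares 616 with D730044K07Rik and Rpl12 56 with Lrsam1 in the same way. These exons are those of every annotated transcript of a gene, not of the 1 transcript used for the 50-base words. Other genes hold 93.3% of the 50-base words of Rpl9 and 76.4% of those of Rpl30, so the counts of both are uncertain. For Rpl12, Rpl14, Rpl23, Rpl28, Rpl37a and Rpl38 the share was 34.75% to 52.06%.

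In the 40S subunit, Rps21 and Rps20 rose and Rps24 fell. Rps21 (chromosome 2, 180257377 to 180258445) had 331, 319, 334 and 364 normalized counts in the controls and 526, 453 and 601 in mNrf2-TG. The controls were close together and all transgenic libraries were higher, with a Log2FC of 0.64 (SE 0.102, adjusted p = 0.0033). Rps20 (chromosome 4, 3831334 to 3835665), a protein of the head of the 40S subunit, had 587, 605, 640 and 663 normalized counts in the controls and 875, 807 and 873 in mNrf2-TG. Its groups were also apart, with a Log2FC of 0.45 (SE 0.0724, adjusted p = 0.0037). Rps24 (chromosome 14, 24487125 to 24496959), one of the Diamond-Blackfan anemia genes, had 1922, 1963, 1865 and 2032 normalized counts in the controls and 1426, 1398 and 1441 in mNrf2-TG. The 3 transgenic hearts lay within a coefficient of variation of 1.52%, all below the controls, and the Log2FC was -0.45 (SE 0.0627, adjusted p = 0.00164). Of the 50-base words of Rps21, Rps20 and Rps24, 26.4%, 7.57% and 19.1% occurred in other genes. These shares depend on the transcript used, which had 3706 bases for Rps20 and 1613 for Rps24. Words of Rps20 occurred in 50 other genes and those of Rps24 in 10. The calls of Rps21, Rps20 and Rps24 held under all 16 alternatives. Rps19, the gene most often mutated in Diamond-Blackfan anemia, had a Log2FC of 0.39 (SE 0.0839, adjusted p = 0.0127) and also kept its call throughout, up to 0.0445. Rps26, which lies at the exit of the messenger RNA channel, had a Log2FC of -0.33 (adjusted p = 0.0284), with 0.06, 0.109 and 0.08 without NTG 4, mNrf2-TG 17 and mNrf2-TG 18. Of the 31 core 40S genes, 25 were not called.

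The P-stalk recruits translation factors to the 60S subunit and consists of Rplp0 with copies of Rplp1 and Rplp2. Rplp0 (chromosome 5, 115559467 to 115563727), one of the genes the study used to normalize PCR, had 3378, 3491, 3260 and 3303 normalized counts in the controls and 4069, 3718 and 4154 in mNrf2-TG. All transgenic libraries exceeded the controls, and the Log2FC was 0.25 (SE 0.0651, adjusted p = 0.0291). The adjusted p was 0.0709 without NTG 1, 0.0604 without NTG 4, 0.0965 without mNrf2-TG 17 and 0.1 without mNrf2-TG 19. The call was also lost when libraries were scaled to the summed members. Rplp1 and Rplp2 overlapped between the groups, with Log2FC values of 0.04 (95% confidence interval -0.10 to 0.19) and -0.01 (-0.17 to 0.14).

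Of the 7 retrogenes and pseudogenes, Rpl32l and Gm15501 were called higher and the others were not called. Rpl32l (Entrez gene 621697, chromosome 10, 20208490 to 20208888), a copy of Rpl32 in a single exon, had 99.99, 126, 99.0 and 128 normalized counts in the controls and 217, 177 and 169 in mNrf2-TG. Its Log2FC was 0.72 (SE 0.138, adjusted p = 0.00769) and kept its call under all 16 alternatives, whereas Rpl32 itself had a Log2FC of 0.16 (adjusted p = 0.166). Rpl32l shares 19.4% of its 50-base words with Rpl32, and 35.4% with any of 9 other genes. Gm15501 (Entrez gene 100040298, chromosome 7, 93178983 to 93184176) had a Log2FC of 0.41 (SE 0.0735, adjusted p = 0.00608). Its counts are uncertain, because 92.4% of its 50-base words occur in other genes and the authors kept the best alignment of each read. Rps27 and Rps27rt also share nearly all of their sequence, 98.7% of the words of Rps27.

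Across the members, the median share of 50-base words that also occur in other genes was 56.7%, with 1 transcript used per gene. Among the 36 members with under 50% shared words, 8 were called higher and 5 lower, and among the 54 with more, 9 and 1. This split depends on the length of the transcript used. Rps20, with 3706 bases, is in the first group with 7.57%, although its words occur in 50 other genes. Rpl3l, Rpl39l and Rps19bp1 were among the 4 members that shared no word with another gene.

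**Figure D4:**
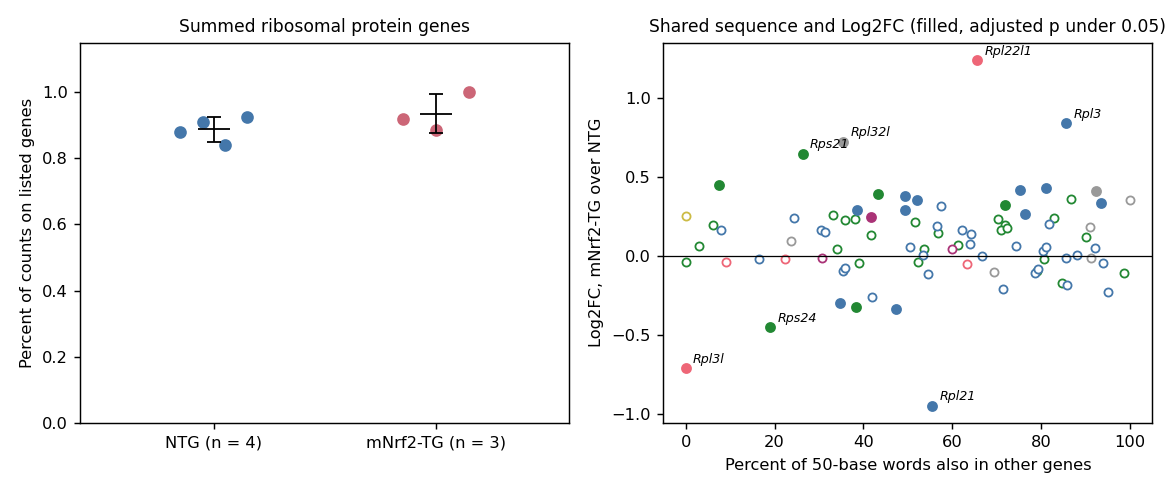
Left, percent of counts on the listed genes that fell on the 90 ribosomal protein genes, per library with mean and SD, with overlapping ranges of 0.839% to 0.925% in NTG and 0.886% to 0.9997% in mNrf2-TG. Right, Log2FC of each gene against the percent of its 50-base words that occur in other genes, coloured by role as green 40S, blue 60S, purple P-stalk, pink paralog, grey retrogene or pseudogene and yellow Rps19bp1; filled points have an adjusted p under 0.05 and are found from 0% to over 90% shared words.

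Per kilobase of transcript, Rplp1 was the highest member with 5019 normalized counts in the controls and 5172 in mNrf2-TG. Rps15, a 40S protein near the decoding site, followed with 3872 and 3743 per kilobase, and Rpl8, a core 60S protein, with 2564 and 2870. Rplp0 had 2473 and 2931 per kilobase, and Rps29, a zinc-binding 40S protein, had 2122 and 2482. Rpl8 and Rps29 were not called, with Log2FC values of 0.16 (95% confidence interval 0.03 to 0.30, adjusted p = 0.0992) and 0.23 (0.04 to 0.41, adjusted p = 0.0927). In NTG the core and P-stalk members ranged from 110.0 to 5019 per kilobase with a median of 827. Over these 76 members the level was negatively correlated with the share of words that also occur in other genes. The Spearman correlation was -0.32, and the Pearson correlation with the log2 level was -0.23. Levels per kilobase also depend on the transcript used, such as that of 3706 bases for Rps20, which had 168 per kilobase in NTG. The part of shared words and of transcript choice in this ranking was not tested.

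Libraries differed in their level of the core proteins as a group. The median deviation of the core and P-stalk members from the NTG mean was -0.03, 0.02, -0.05 and 0.06 log2 units in NTG 1 to 4 and 0.07, 0.05 and 0.18 in mNrf2-TG 17 to 19. Of the 90 members, 64 had their highest transgenic value in mNrf2-TG 19, and 38 had their lowest control value in NTG 3. Rps2, Rps14, Rps18 and Rps9 were lowest in NTG 3, where Rps2 had 706 normalized counts against 1060 to 1156 in the other controls. Rpl26 varied within the transgenic group, with 485, 642 and 985 normalized counts against 728 to 862 in NTG, and was not called (Log2FC -0.21, adjusted p = 0.49). These 5 genes were picked after their values were seen. The median coefficient of variation was 6.42% in NTG and 6.07% in mNrf2-TG, beside 4.38% and 4.04% that counting error alone gives.

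**Figure D5:**
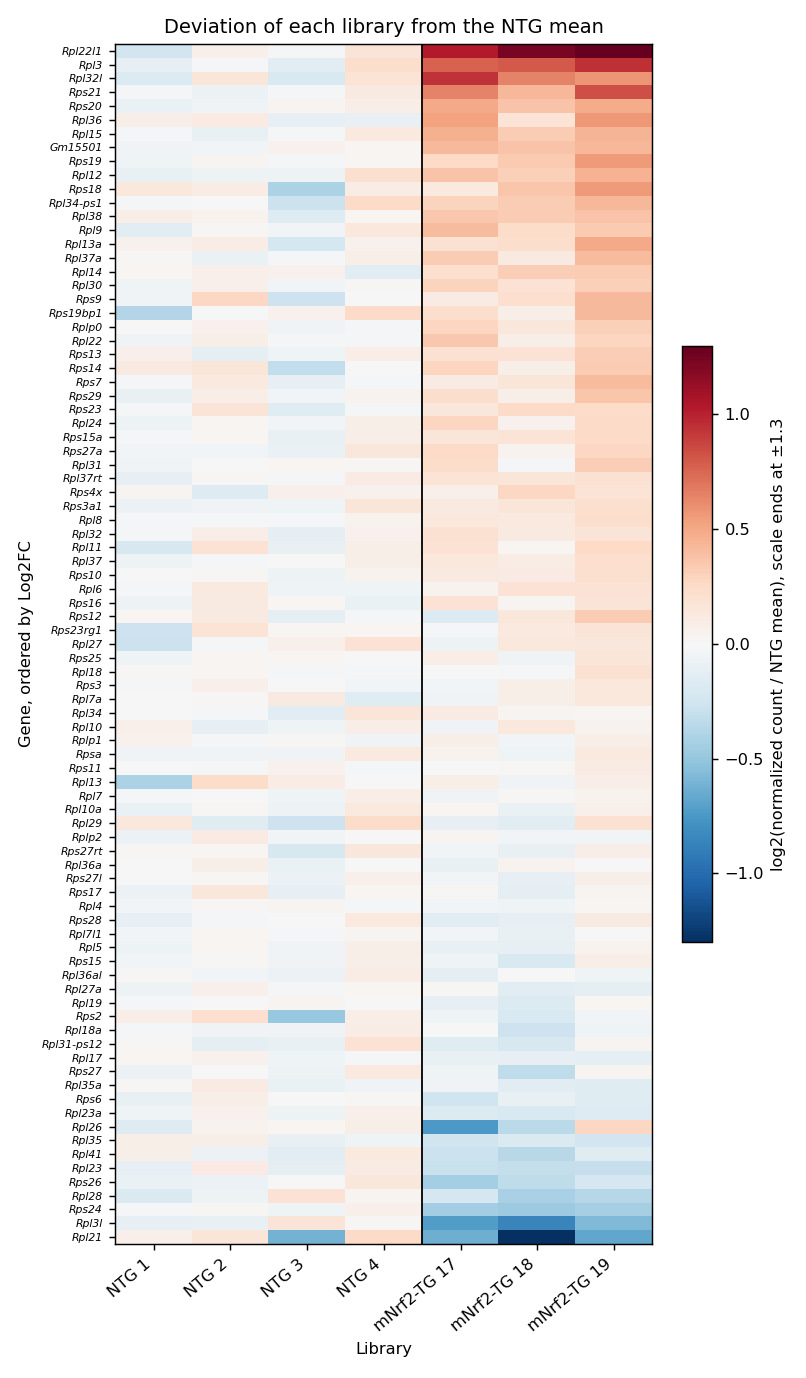
Heat map of log2(normalized count over the NTG mean) for 87 ribosomal protein genes (rows, ordered by Log2FC) in the 7 libraries (columns), with red above and blue below the NTG mean and the colour scale ending at ±1.3. Rpl22l1 and Rpl3 are red in all 3 mNrf2-TG libraries, Rpl3l and Rps24 are blue in all 3, and Rps2, Rps18 and Rpl21 are low in NTG 3.

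Of the 3 ribosomal proteins with other symbols, 1 was called. Rack1, a signalling scaffold on the 40S head, rose from 1192 ± 68.3 normalized counts (SD, n = 4) to 1567 ± 51.3 (SD, n = 3), with a Log2FC of 0.39 (adjusted p = 0.00538). Fau, which encodes a 40S protein fused to a ubiquitin-like protein, had 0.25 (adjusted p = 0.0507, past the threshold in 6 of 15 alternatives). Elongation factor eEF1A, which brings aminoacyl-tRNA to the ribosome, has a general gene, Eef1a1, and a muscle and nerve gene, Eef1a2. Eef1a1 had 2561, 2494, 2633 and 2458 normalized counts in the controls and 4260, 5249 and 4410 in mNrf2-TG, with a Log2FC of 0.87 (SE 0.0805, adjusted p = 0.00018). Eef1a2 had 10556 ± 573 normalized counts in the controls (SD, n = 4) and 12393 ± 692 in mNrf2-TG (SD, n = 3), with a Log2FC of 0.23 (adjusted p = 0.042). That call was kept only without NTG 3 among the fits that left out 1 library, and the adjusted p was 0.0536 to 0.144 in the others. The log2 ratio of Eef1a2 to Eef1a1 was 2.06 ± 0.0393 (SD, n = 4) and 1.42 ± 0.099 (SD, n = 3). In this pair, as in that of Rpl3l and Rpl3, the general gene gained on the muscle gene, but here both genes had positive Log2FC values. As with Rpl3, much of the general gene's sequence is shared. Of the 50-base words of Eef1a1, 60.6% also occur in other genes, 21 in number, and 0.0% of those of Eef1a2 do.

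Genes that make or regulate ribosomes were read from lists of their known roles. Among 94 ribosome assembly factors, 2 rose and 11 fell. Gnl2 and Rpf1, both needed for the 60S subunit, fell with Log2FC values of -0.59 (adjusted p = 0.00231) and -0.55 (adjusted p = 0.0034). Among 30 translation initiation factors, 0 rose and 4 fell, including Eif5b, the GTPase that joins the subunits (Log2FC -0.48, adjusted p = 0.00158), and Eif2s1, the alpha subunit of eIF2 (-0.31, adjusted p = 0.0183). The call of Eif2s1 was lost without NTG 2, mNrf2-TG 18 or mNrf2-TG 19 (0.0593, 0.0615 and 0.0715). Among 16 RNA polymerase I genes and cofactors, 1 fell, Nolc1 (-0.37, adjusted p = 0.015, and 0.05 and 0.0631 without NTG 2 and mNrf2-TG 19). Of 18 translation factors and other genes whose messages carry the same 5′ terminal motif as those of ribosomal proteins, 2 rose and 2 fell, with Eif3h at -0.30 (adjusted p = 0.015, and 0.0645 without mNrf2-TG 17). Of 11 chaperones and importers of ribosomal proteins, 3 rose and 1 fell, and the importins Ipo5 and Ipo4 had Log2FC values of 0.60 (adjusted p = 0.00148) and 0.40 (adjusted p = 0.00666). Of 26 genes of mTORC1 and of ribosomal protein message control, 3 rose and 5 fell. Ddit4, an inhibitor of mTORC1, fell from 651 ± 153 normalized counts (SD, n = 4) to 181 ± 74.0 (SD, n = 3), with a Log2FC of -1.84 (adjusted p = 0.00257). Max, the partner of Myc, had -0.79 (adjusted p = 0.000424), and Mtor itself was among those that rose (0.42, adjusted p = 0.00899). Of 20 genes of ribosome stalling and quality control, 1 fell, Edf1 (-0.25, adjusted p = 0.0472), which kept its call only without NTG 3 among the fits that left out 1 library. Over these 8 lists with Eef1a2, 37 of 219 genes (16.9%) were called, 12 higher and 25 lower. Of all genes tested, 17.2% were called (8.48% higher and 8.73% lower). Of those with a mean count of at least 100, 24.0% were called (10.3% higher and 13.7% lower). None of the 219 genes had a mean count under 10. The call count of these genes was 21 without NTG 1, 17 without NTG 2 and 18, 19 and 21 without mNrf2-TG 17, 18 and 19.

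Promoter sequence was available for 69 of the 90 members in RefSeq (GRCm38.p6, 250 bases before to 50 bases after the annotated start). The letters TGACNNNGC, the core of the antioxidant response element that Nrf2 binds with a small Maf protein, were searched on both strands. They occurred in 16 of 81 member windows (19.75%), and in 14 of the 69 genes (20.29%). Among the listed genes that are not members they occurred in 14.02% of windows and 16.63% of genes, and among all RefSeq windows of the same length in 12.39%. Of the 17 called members with a promoter entry, 5 held the motif, and Rpl22l1, Rplp0, Rpl14 and Rpl15 among them were higher in mNrf2-TG while Rpl3l was lower. The median GC content of the windows was 57.7% for members, 60% for listed genes that are not members and 52.7% for all. A match is a description of the letters and not of binding. The sequences around the motif are shown for Rpl22l1 (chr3:28805446-28805486, plus strand) and Rplp0 (chr5:115559251-115559291, plus strand), with the motif in capitals.
Rpl22l1: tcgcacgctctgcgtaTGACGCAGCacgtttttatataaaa
Rplp0: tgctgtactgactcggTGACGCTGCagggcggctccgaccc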

How the data were processed

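RNA sequencing libraries of 4 NTG and 3 mNrf2-TG hearts were analysed from the deposited table of raw counts, which the authors made from poly(A)-selected, stranded, single reads of 50 bases. Per the study's methods and the submitters' processing notes, Novoalign 2.08.01 aligned reads to chromosome and splice junction sequences, with up to 50 alignments per read, USeq's SamTranscriptomeParser then picked the best, and DESeq2 1.32.0 was used afterwards. The methods name hg19 for the index and mm10 (GRCm38) for the mapping. The counting program and its use of strand are not given in the sources used here. The authors' fold changes, adjusted p-values and rlog values were not used, and the counts were joined to symbols by Entrez identifier.

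Genes with a summed count above 1 (14637 of 14641) were tested in edgeR 4.0.16 (R 4.3.3) with TMM and the quasi-likelihood test, without covariates. The SE was taken as |Log2FC| over the root of the F statistic. Each library came from 1 mouse, and totals of 6534684 to 8405857 counts set the precision. Paralog ratios, log2 of counts plus 0.5, were compared by exact permutation over the 35 assignments of libraries. Gene positions and lengths came from GENCODE M21 (GRCm38), with 50-base words of 1 coding transcript per gene matched to the transcripts of all other genes. Genes named were the 10 called members of largest change, the P-stalk, paralog pairs with a paralog mean count of at least 10, the 5 highest per kilobase, ribosomal proteins with other symbols, Eef1a1, Eef1a2, the 2 smallest p-values of each other translation list, and Nfe2l2. Rps19, Rps26, Rpl9, Rpl12, Rpl14, Rpl23, Rpl28, Rpl30, Rpl37a, Rpl38, Gm15501 and Mtor were named after their values were seen. Some genes are counted but not reported here by name or drawn in the plots with gene labels. The members and lists were chosen with earlier results of these data known. On simulated counts for this comparison over 14597 genes, 23% of 100 genes changed by a Log2FC of 0.5 and 95% of 100 changed by 1.5 were recovered, and 7.09% of calls were false. Alternatives were DESeq2 1.42.0, limma-voom (limma 3.58.1), other scalings and filters, and leaving out each library.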

Additional observations from a re-analysis of the deposited data

Results flagged for a closer look

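Rpl8, a core 60S protein gene and one of the highest members per kilobase, had 2158, 2148, 2163 and 2257 normalized counts in NTG 1 to 4. NTG 4 stood away from the others, with a gap to its neighbour of 0.861 of the whole range, above Dixon's 95% critical value for 4 samples. All 3 mNrf2-TG libraries, from 2377 to 2555, lay above NTG 4. The criterion flagged 1 of the 23 named members and 7 of the 89 members checked. Chance flags about 1 in 20 groups.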

How the results depend on the processing

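No paired analysis was possible because the groups share no replicate numbers. No result named here changed sign with a call. Higher members numbered 17, and 13 to 17 under other tools, scalings and filters. They were 9 to 15 with 1 library left out, and 8 among members with under 50% shared words, a count over fewer genes that was added after the data were seen. Lower members numbered 6, and 4 to 7 under other tools, scalings and filters. They were 2 to 7 with 1 library left out. Calls in the other translation lists numbered 37, and 17 to 37 with 1 library left out. The cause of these losses was not tested, although fewer samples enter each fit. The log2 ratio difference of Rpl3l to Rpl3 was -1.626 to -1.457 and that of Rpl22l1 to Rpl22 0.914 to 1.153 with 1 library left out, where the exact test cannot reach 0.05 and says nothing about stability. With the smaller tail doubled, the form computed first, the differences of -1.557 and 0.996 had an exact permutation p of 0.0571. In simulated counts of genes of all abundances, 23% of changes of 0.5 in Log2FC were recovered, and the share at the members' own counts was not computed.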
